A study of Mus musculus with 4 samples.

Results

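Binding of RFX2 in mouse testis was examined at 8 genes that encode transcription regulators of male germ cells, namely Crem, Fhl5, Tbpl1, Gtf2a1l, Mybl1, Sox5, Sox30 and Tcfl5. They are 8 of 21938 protein-coding genes in the annotation and were listed by name for their role in sperm development, by a rule that uses no measured value. Earlier results of these data were, however, known when the list was made. A gene's promoter was taken as 1000 bp upstream to 500 bp downstream of any of its annotated transcription start sites (TSS), and its locus as the gene body plus 50 kb on each side. The 8 loci span 2.03 Mb, of which the Sox5 locus alone takes 1.05 Mb. In ChIP-seq, the method used, chromatin fragments held by an anti-RFX2 antibody are precipitated and sequenced, and places with more reads than in untreated chromatin are called peaks. Chromatin came from wild type (WT) mice without any allele or treatment of their own. Per the sample labels these carried a mixed genetic background of C57BL/6, 129/Sv and FVB/N and gave decapsulated testes at postnatal day 29 to 30. The study's text describes a preparation of germ cells from younger WT mice, and the lists do not settle which applies. There were 4 samples, 2 RFX2 ChIP replicates and 2 inputs, and the inputs enter only through the authors' peak calling. The labels do not say whether the replicates came from separate animals.

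RFX2 belongs to the Regulatory Factor X family and binds the X-box, an inverted repeat of a pair of arms. It rises in meiotic spermatocytes and round spermatids, where it is required for genes of the cilium and the sperm flagellum. The regulators examined here act in the same cells. Mybl1 (A-MYB) is a master factor of meiotic transcription in pachytene spermatocytes, and Tcfl5 is a helix-loop-helix factor of the same cells. Crem (cAMP responsive element modulator) switches to an activating isoform in round spermatids and drives genes such as those of the protamines. Fhl5 (ACT) is a LIM-domain protein that coactivates CREM in the testis. Tbpl1 (TLF, TRF2) is a relative of the TATA-binding protein that is needed for round spermatids to progress. Gtf2a1l (ALF) is a germ cell form of the large subunit of the general factor TFIIA. Sox30 is a testis-enriched SOX factor needed for round spermatid development, and Sox5 is a SOX factor with a short form expressed in spermatids.

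Peaks in the loci of the 8 regulators were taken from 3 lists for genome build GRCm38. Replicate 1 had 39825 peaks and replicate 2 had 21274, and the peaks of each carry a score on a −log10 scale. The scores ran from 2.03 to 475 (median 4.47) in replicate 1 and from 2.08 to 266 (median 5.06) in replicate 2. The combined list holds 2726 peaks with their −log10 p (43.2 to 493, median 82.1), fold enrichment over local background (median 17.0) and summit. Ranks below count from the highest score of a list, and a rank is also given as its percentage of that list. Of all peaks, 20.2% of those in replicate 1 and 39.2% of those in replicate 2 overlapped a peak of the other replicate, which is called shared. The number of reads behind the lists is unknown. The study's methods describe a default and a relaxed call per replicate, and which of them the replicate lists hold is not stated. They also describe a set of peaks kept for reproducibility between the replicates. Whether the combined list is that set is not stated either, though the study gives a similar number of peaks for that set. No peak of the combined list has a −log10 p below 43.2, so weaker sites are missing from it. All scores lie above 2, so a low-scoring peak in 1 replicate may have passed only a lenient threshold. A peak has 1 value per replicate and no error of its own, so the only check between replicates is whether both hold a peak at a place and how they rank it.

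Sequences under 7 of the 8 shared peaks are shown first, since the sites differ in how near they come to an X-box. The remaining one belongs by position to the promoter of a neighbouring gene, Thg1l, and is described in words with the Sox30 locus. The X-box was searched on both strands as GTTGCCATGGCAAC, in which the arms GTTGCC and GGCAAC flank AT, with at most 3 mismatches. All stretches are from the plus strand of GRCm38 (NCBI RefSeq sequence), and capitals mark the 14 bases nearest to this X-box in the site. Among equal matches, the one closest to the middle of the site is marked. Dync2li1, which encodes a light intermediate chain of the dynein of cilia and is a known RFX target, is given for scale.
Dync2li1 promoter, chr17:84626430-84626489, 0 mismatches: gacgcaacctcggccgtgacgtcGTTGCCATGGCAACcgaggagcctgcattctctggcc
Sox30 downstream site, chr11:46030204-46030263, 1 mismatch: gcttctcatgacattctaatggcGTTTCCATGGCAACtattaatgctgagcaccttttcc
Gtf2a1l upstream site, chr17:88653073-88653132, 2 mismatches: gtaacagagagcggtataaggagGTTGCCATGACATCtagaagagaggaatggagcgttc
Sox30 promoter, chr11:45979913-45979972, 3 mismatches: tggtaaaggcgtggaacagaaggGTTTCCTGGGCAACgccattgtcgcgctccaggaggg
Tbpl1 promoter, chr10:22731103-22731132, 4 mismatches: ccgacgggGTTACCGTGGGAAGacggggcg
Gtf2a1l promoter, chr17:88668449-88668508, 5 mismatches: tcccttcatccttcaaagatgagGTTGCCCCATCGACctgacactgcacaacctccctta
Tcfl5 upstream site, chr2:180692856-180692915, 5 mismatches: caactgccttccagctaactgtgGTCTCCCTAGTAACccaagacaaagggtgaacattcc
Sox5 intron, chr6:144032795-144032854, 6 mismatches: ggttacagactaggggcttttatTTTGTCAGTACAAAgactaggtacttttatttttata

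A promoter peak was found for 4 of the 8 regulators in at least 1 list. Sox30, Tbpl1 and Gtf2a1l had a promoter peak in both replicates. In replicate 1 these were 3 of 8 genes, against 14.0% of all protein-coding genes, and in replicate 2 they were joined by Sox5, giving 4 of 8 against 11.3%. The count in both replicates was 3 of 8 against 9.05%. In the combined list only Sox30 had a promoter peak, 1 of 8 against 5.26%. Crem, Fhl5, Mybl1 and Tcfl5 had no promoter peak in any of the 3 lists. With only 8 genes, each gene is a large step in such a share, and no test was made of these counts.

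**Figure D1:**
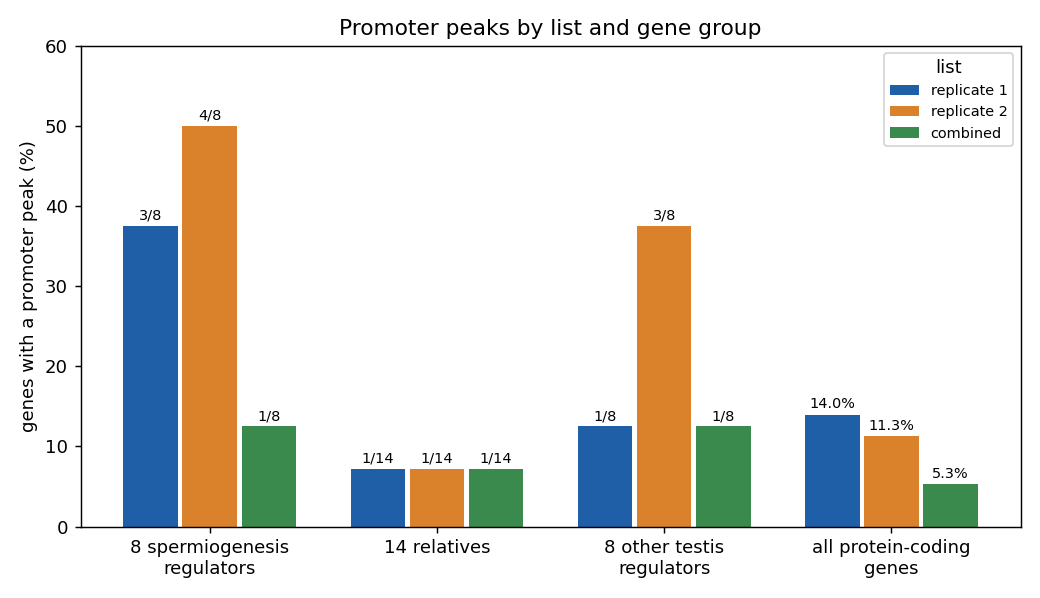
Share of genes with an RFX2 promoter peak (vertical axis, percent) in replicate 1, replicate 2 and the combined list (bars by colour), for the 8 spermiogenesis regulators, 14 relatives, 8 other testis regulators and all 21938 protein-coding genes. Labels on the bars give genes with a peak over genes in the group, or the percentage for all genes; the regulators stand at 3, 4 and 1 of 8.

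The Sox30 promoter carried the highest promoter peak among the regulators. Sox30 lies on chromosome 11 (45980310 to 46017994, plus strand) and has 1 annotated TSS. In replicate 1 its promoter peak (45979431 to 45980293) scored 84.8, rank 894 or 2.24% of the list. In replicate 2 the peak (45979742 to 45980197) scored 18.5, rank 1964 or 9.23%. Both replicates thus placed it within the first 10% of their lists. The peak centres lay 448 and 341 bp upstream of the TSS. In the combined list the peak had a −log10 p of 78.6 (rank 1447 of 2726), and its summit lay 342 bp upstream of the TSS. Its fold enrichment of 10.01 was rank 2503 of 2726, so the site stands lower in that list by fold than by p. Among genes with a promoter peak, Sox30 was 515 of 3066 in replicate 1, 1029 of 2474 in replicate 2 and 784 of 1153 in the combined list. For comparison, the Dync2li1 promoter scored 182 (rank 167) and 83.0 (rank 191) and had a fold enrichment of 34.0. The X-box of the Sox30 promoter differs from the palindrome by G4T, A7T and T8G, where position 1 is the first base of the palindrome as written above. The right arm is complete, while the left arm and the AT between the arms are changed. Its middle lay 26 bp from the summit and 368 bp upstream of the TSS. This is the only X-box with at most 3 mismatches in the promoters of the 8 regulators.

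Tbpl1 and Gtf2a1l, the variants of general transcription factors, had promoter peaks that ranked below that of Sox30 in both replicates. Tbpl1 lies on chromosome 10 (22703879 to 22731938, minus strand) and has 4 annotated TSS. Its promoter peak scored 10.3 in replicate 1 (rank 8378, 21.04%) and 15.5 in replicate 2 (rank 2285, 10.7%). The peaks overlapped by 267 bp and their centres were 18 bp apart. The centres lay 123 and 141 bp downstream of the nearest TSS, inside an annotated exon and untranslated region of Tbpl1. That TSS is an internal one, and the centres lay 700 and 718 bp downstream of the 5′-most TSS, so that with the 5′-most TSS alone Tbpl1 has no promoter peak. The combined list holds no peak there. The nearest X-box match has 4 mismatches (G4A, A7G, C11G and C14G).

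Gtf2a1l lies on chromosome 17 (88668660 to 88715152, plus strand) and has 3 annotated TSS. Its promoter peak scored 2.80 in replicate 1, rank 39015 or 97.97% of the list. In replicate 2 it scored 11.2, rank 3206 or 15.1%. The peak is thus near the end of one list and within the first 20% of the other, although the centres lay only 27 bp apart, 60 and 87 bp upstream of the 5′-most TSS. Of 53 shared pairs in the last 5% of replicate 1, 11 (20.8%) stood within the first 20% of replicate 2. The combined list holds no peak at this promoter. The match shown has 5 mismatches, all of which fall in the AT and the right arm, and its left arm is complete. Its middle lay 108 bp from the mean of the centres. The peak of replicate 1 holds another match with 5 mismatches (88668705 to 88668718), so the choice between them is one of position. In the 200 bp around the centre of either replicate the fewest mismatches were 6.

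Sox5 had a promoter peak in replicate 2 alone. Sox5 lies on chromosome 6 (143828425 to 144781977, minus strand), is 953.6 kb long and has 12 annotated TSS. The peak scored 5.06 (rank 9094, 42.7%) and lay 60 bp upstream of an internal TSS that is 834.8 kb from the 5′-most one. That score is the median of the list and is held by 2417 peaks in all, which share the best rank. Replicate 1 holds no peak there. In both replicates the order by promoter score was Sox30, Tbpl1 and Gtf2a1l. In replicate 2 these neighbours lay close, at 9.23%, 10.7% and 15.1% of the list, and without an error per peak it cannot be said that those scores differ.

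Peaks were frequent in the loci, promoters included, as they are around most genes. A locus peak was found for 7 of the 8 regulators in replicate 1, all but Mybl1, against 80.5% of all protein-coding genes. In replicate 2 it was again 7, all but Crem, against 68.0%. The combined list held a locus peak for Gtf2a1l, Sox30, Sox5 and Tcfl5, 4 of 8 against 24.4%. A locus peak shared by both replicates was found for 5 of 8 against 45.8%, namely these 4 and Tbpl1. For Tbpl1 the shared peak is the promoter peak described above, and for Tcfl5 it meets the locus only at its edge. The loci held 36 peaks in replicate 1 and 23 in replicate 2, or 17.7 and 11.3 per Mb. Over the genome the lists held 14.6 and 7.81 per Mb. The combined list held 5 peaks in the loci, 2.46 per Mb against 1.0 over the genome. Large loci hold more peaks by their length, and the Sox5 locus alone held 15 of the 36 and 10 of the 23.

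**Figure D2:**
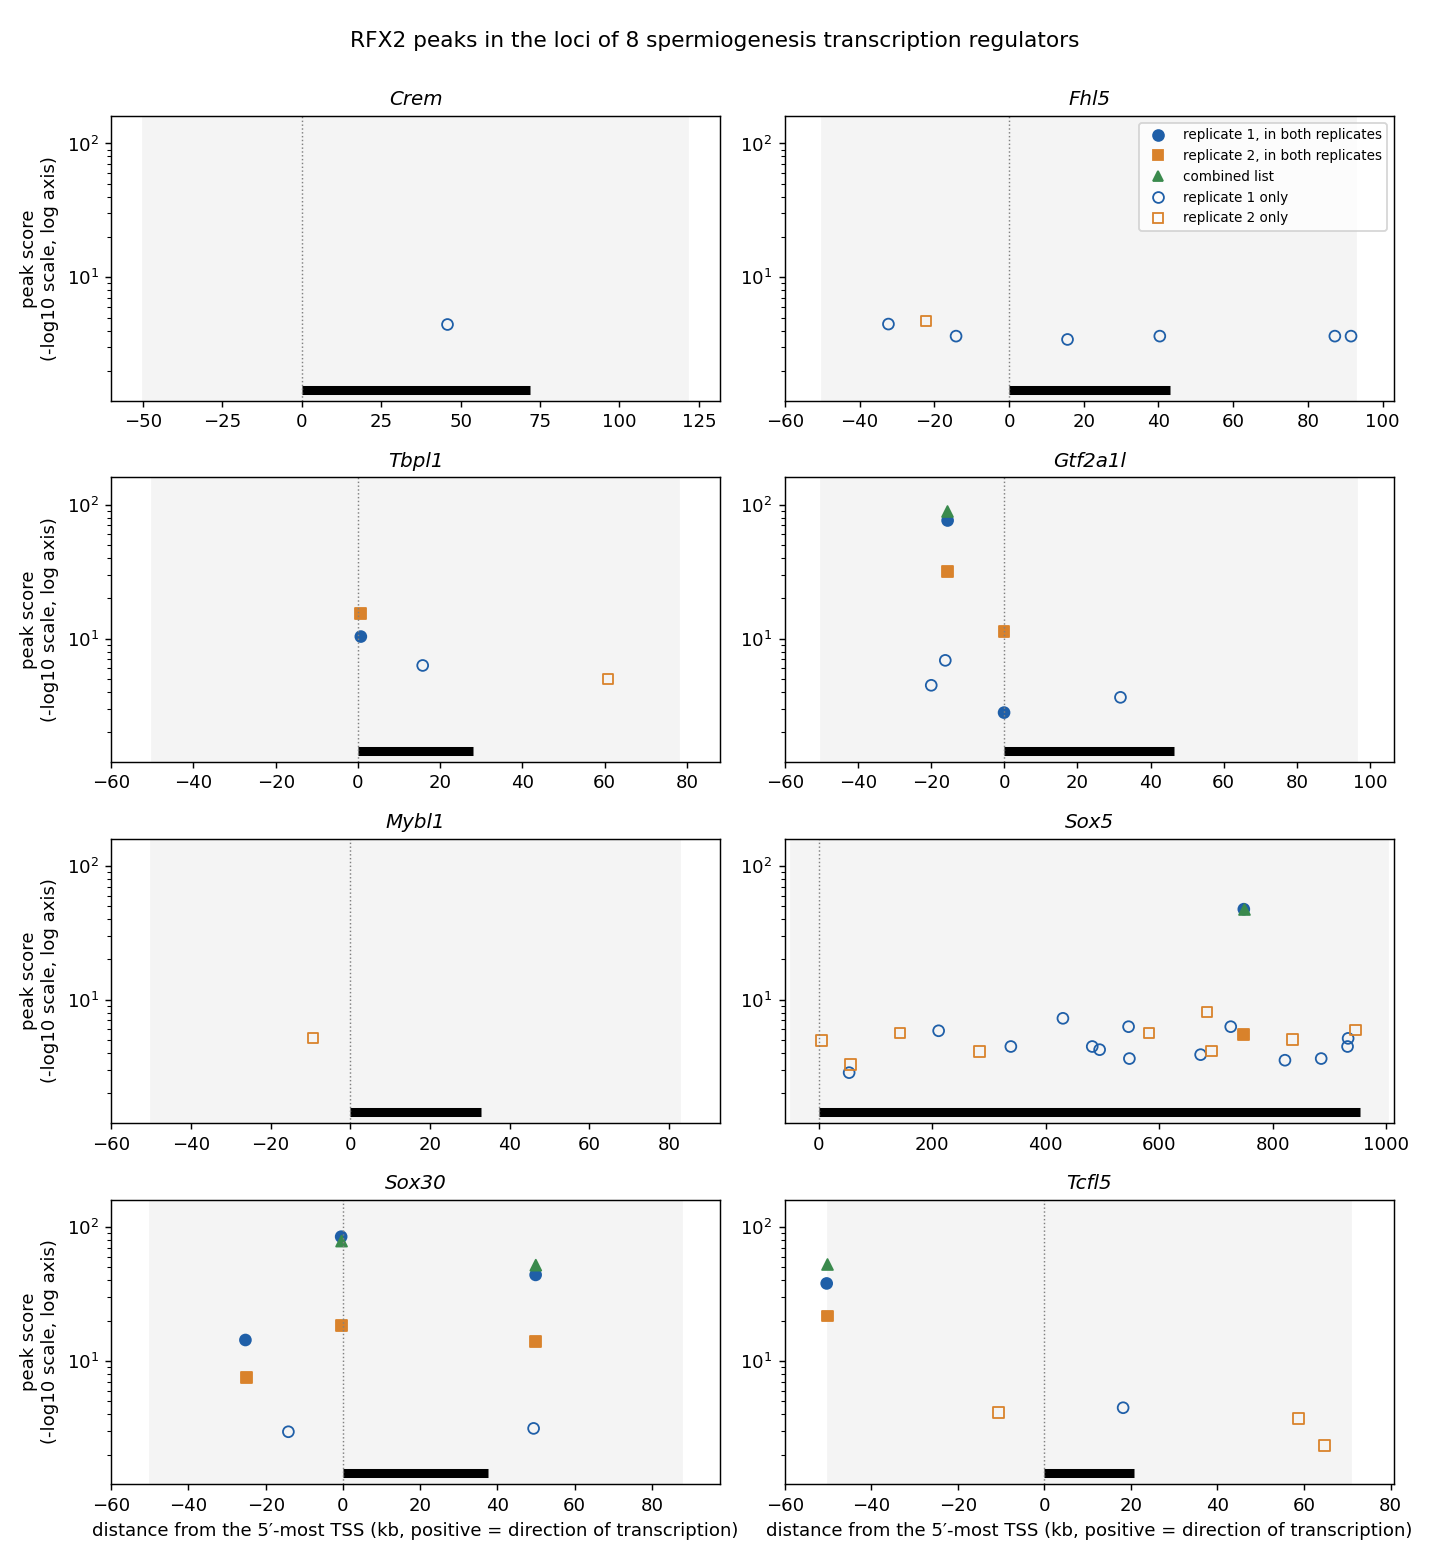
Score of every peak (vertical log axis, −log10 scale; −log10 p for the combined list) against its distance from the 5′-most TSS (kb, positive in the direction of transcription) in the loci of the 8 regulators; black bars are gene bodies, grey areas the loci. Filled circles and squares are peaks of replicates 1 and 2 that overlap the other replicate, open ones do not, and triangles are the combined list. Crem, Fhl5 and Mybl1 have open points only, with scores from 3.43 to 5.18, where the list medians are 4.47 and 5.06.

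The strongest site in the locus of Gtf2a1l, and by rank in replicate 2 of all 8 regulators, was not its promoter but a site 15.5 kb upstream. The peak scored 76.2 in replicate 1 (rank 1064, 2.67%) and 31.6 in replicate 2 (rank 1002, 4.71%). Its centres were 2 bp apart, the closest of the 8 shared sites. In the combined list (88652700 to 88653662) it had a −log10 p of 90.5 (rank 1198), the highest among the combined peaks of the 8 loci, and a fold enrichment of 12.3 (rank 2250). It lies in an intron of Ston1, the neighbouring gene for an adaptor of endocytosis. The nearest TSS of a protein-coding gene is that of Gtf2a1l, 15561 bp from the summit, and that of a long noncoding RNA, AC166350.2, is nearer at 11654 bp. The X-box at this site has 2 mismatches (G10A and A13T) and its middle lay 3 bp from the summit. Its left arm and AT are complete and its right arm is changed. The upstream site and the promoter of Gtf2a1l thus differed in both replicates in rank, and the lists do not connect the upstream site with any gene.

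Sox30 had a further strong site 49.9 kb downstream of its TSS, 12.3 kb beyond the end of the gene. It scored 44.0 in replicate 1 (rank 2032, 5.10%) and 13.9 in replicate 2 (rank 2579, 12.1%). The combined peak (46029708 to 46030588) had a −log10 p of 52.0 (rank 2302) and a fold enrichment of 16.0 (rank 1545). Compared with the Sox30 promoter, the downstream site ranked lower by score in all 3 lists and higher by fold enrichment. It is intergenic. The nearest annotated TSS is that of the pseudogene Gm12165 at 6177 bp, and the nearest of a protein-coding gene, Gm12166, is 22.0 kb away. Its X-box differs from the palindrome at 1 position (G4T), and the middle lay 30 bp from the summit. The G4T change is shared with the Sox30 promoter. The remaining shared site in the Sox30 locus belongs by position to the promoter of Thg1l, a tRNA guanylyltransferase gene 25 kb upstream. It scored 14.3 (rank 6242, 15.7%) and 7.47 (rank 5578, 26.2%), and the combined list does not hold it. Its nearest X-box match has 3 mismatches and lay 216 bp from the centre, outside the window searched below.

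A strong peak met the Tcfl5 locus only at its very edge. The summit and both replicate centres lie beyond the 50 kb limit. The peak counts only because an overlap of at least 1 bp was enough. Tcfl5 lies on chromosome 2 (180621956 to 180642708, minus strand), and the site lies 50.2 kb upstream by the summit, in an intron of Dido1, which encodes a chromatin-binding protein. It scored 37.95 in replicate 1 (rank 2385, 5.99%) and 21.7 in replicate 2 (rank 1559, 7.33%). The replicates ranked it alike, although their centres were 172 bp apart. The combined peak (180692626 to 180693419) had a −log10 p of 53.3 (rank 2223) and a fold enrichment of 16.3 (rank 1476), the highest fold of the 5 combined peaks. The TSS of the small nuclear RNA gene Gm22502 lies 5171 bp from it and that of Dido1 9.1 kb. With loci of 10 kb on each side, this site, the upstream site of Gtf2a1l and the downstream site of Sox30 are not counted. The nearest X-box match has 5 mismatches, 7 bp from the summit, so this site has no X-box by the limit used.

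The last of the 8 shared sites was an intronic one in Sox5, where the replicates disagreed most in the opposite direction from the Gtf2a1l promoter. It scored 47.5 in replicate 1 (rank 1877, 4.71%) and 5.47 in replicate 2 (rank 8586, 40.4%). The replicate 2 peak was 278 bp wide and covered 33.3% of the peak of replicate 1. Of 2181 pairs in the first 5% of replicate 1, 158 (7.24%) lay outside the first 40% of replicate 2. The combined peak (144032383 to 144033218) had a −log10 p of 47.6 (rank 2507) and a fold enrichment of 10.95 (rank 2403). It lies 749.2 kb from the 5′-most TSS, 85703 bp upstream of the nearest Sox5 TSS and 10901 bp from the TSS of the antisense gene Sox5os1. No match better than 6 mismatches was found around the summit. In a second sequencing run of replicate 2 the authors removed reads that also mapped to the human genome, which can affect conserved sequence in replicate 2 only, and its part in the lower rank was not tested.

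**Figure D3:**
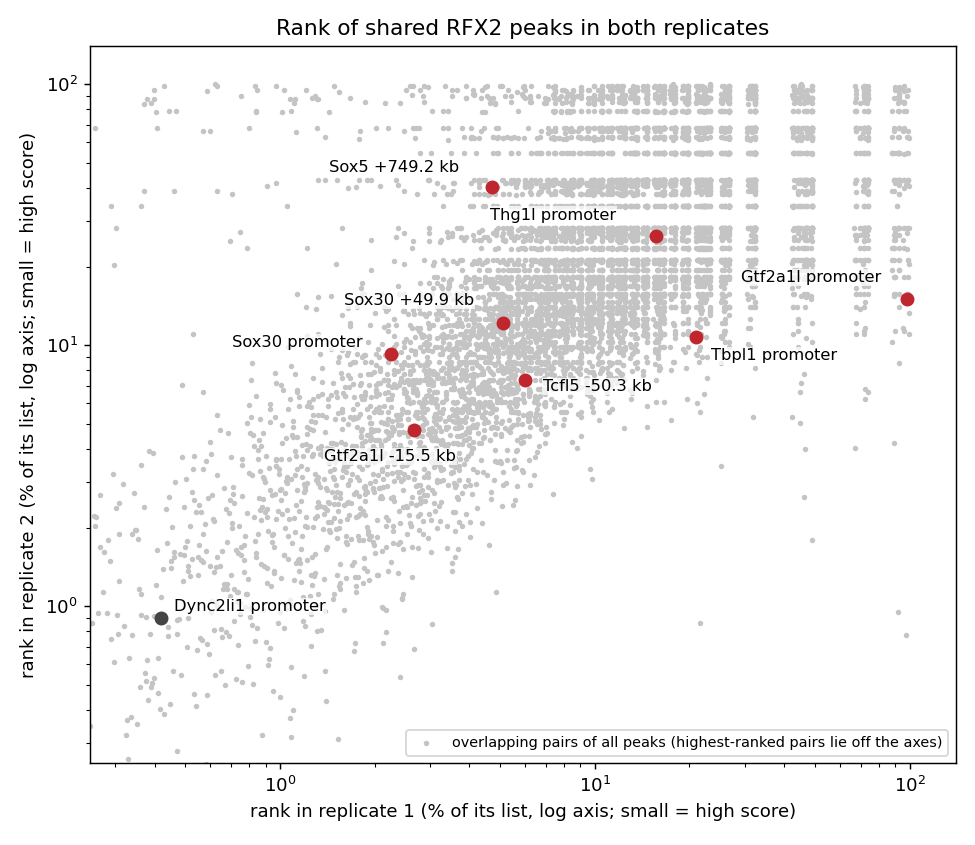
Rank of overlapping peaks in replicate 1 (horizontal) and replicate 2 (vertical), each as a percentage of its list on a log axis, where small values are high scores. Grey points are shared pairs of the whole lists, red points the 8 shared sites in the loci of the regulators, and the dark point the Dync2li1 promoter; the Gtf2a1l promoter (97.97% and 15.1%) and the Sox5 intron (4.71% and 40.4%) lie farthest from equal ranks.

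The median shared pair of the whole lists stood at 10.4% in replicate 1 and 19.4% in replicate 2, with centres 66 bp apart. By score, 5 of the 8 sites of the regulators, namely those of the Gtf2a1l upstream region, the Sox30 promoter, the Sox30 downstream region, the Tcfl5 upstream region and the Sox5 intron, stood above the median pair in replicate 1. These are also the 5 that the combined list holds. In replicate 2 it was 6 of the 8, with the promoters of Tbpl1 and Gtf2a1l above the median pair and the Sox5 intron and the Thg1l promoter below it. As the combined list appears to be called on the pooled reads, its overlap with the replicates is not an independent replication.

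All other peaks in the 8 loci were found in 1 replicate only. There were 43, of which 28 were in replicate 1 and 15 in replicate 2, with scores between 2.34 and 8.10. This range overlaps that of the shared sites, whose lowest scores were 2.80 in replicate 1 and 5.47 in replicate 2. Of the member peaks, 22.2% in replicate 1 and 34.8% in replicate 2 were shared, near the 20.2% and 39.2% of all peaks. Crem, on chromosome 18 (3266048 to 3337748, minus strand) with 26 annotated TSS, had 1 such peak, in replicate 1, with a score of 4.47 that it shared with 7091 peaks of the list in all. It lay in an intron, 7350 bp from the nearest Crem TSS. Fhl5, on chromosome 4 (25199908 to 25242876, minus strand), had 6 in replicate 1 with scores from 3.43 to 4.47 and 1 in replicate 2 with 4.72. No pair of these overlapped. Mybl1, on chromosome 1 (9667415 to 9700209, minus strand), had 1, in replicate 2, with a score of 5.18 at 9267 bp upstream of its 5′-most TSS. For CREM, its coactivator and A-MYB, no place in the locus was therefore listed in both replicates. A weak site below the calling threshold of a list would not be seen, and the lists carry no value at places without a peak. Of the 43 peaks, 1 had an X-box, in Sox5 in replicate 1 (144351591 to 144351820, score 7.27), with 2 mismatches. Of all peaks in the lists, 22.2% in replicate 1 and 24.01% in replicate 2 had an X-box. Those shares include the shared peaks, so they are not the shares of peaks found in 1 replicate only.

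X-boxes were present at some of the bound sites of the regulators but not at most of the shared ones. In 200 bp around the peak centre, 3 of the 8 shared sites had an X-box, namely both Sox30 sites and the upstream site of Gtf2a1l. Of all shared peaks, 52.7% had one. Around the summit, 3 of the 5 combined peaks had one, against 75.4% of the 2726 combined peaks. Among the combined peaks, 5.98% had a best match with 0 mismatches, 22.8% with 1, 27.1% with 2 and 19.6% with 3. A best match of 5 mismatches, as at Tcfl5, was found at 8.36% of the summits and in 26.4% of windows 1000 bp to the right. A best match of 6, as at Sox5, was found at 4.48% of the summits and in 50.5% of the windows to the right. The Sox5 summit thus holds no better match than the commonest value beside the peaks.

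**Figure D4:**
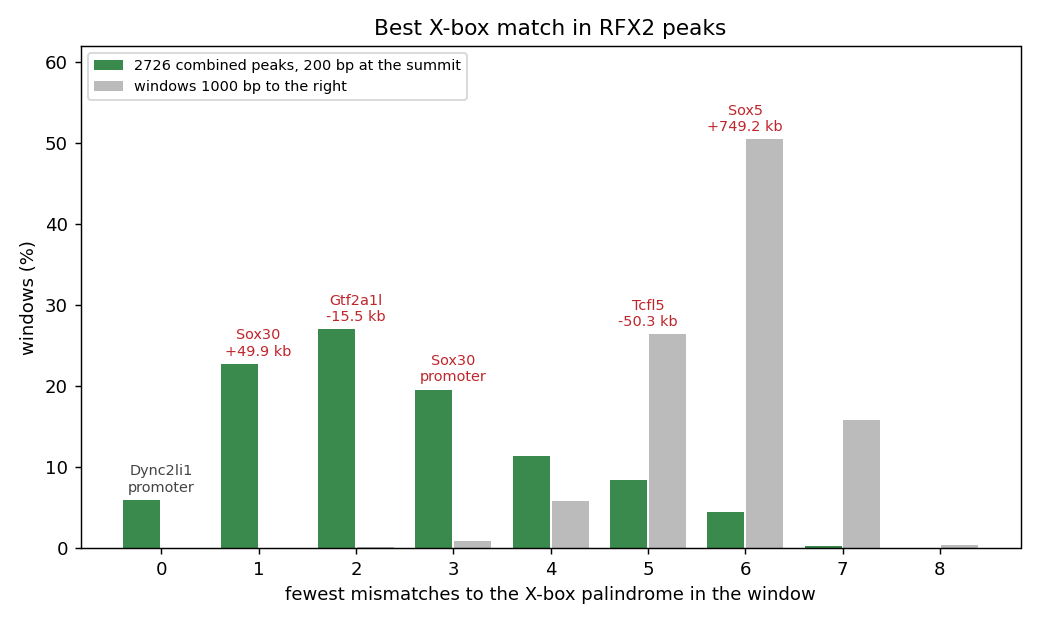
Fewest mismatches to the X-box in 200 bp windows (horizontal axis) against the share of windows (vertical axis, percent), at the summits of the 2726 combined peaks (green) and 1000 bp to their right (grey). Names mark the value of the 5 combined peaks in the loci of the regulators and of the Dync2li1 promoter: Sox30 downstream at 1, Gtf2a1l upstream at 2, Sox30 promoter at 3, Tcfl5 at 5 and Sox5 at 6.

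A looser search was made for a single arm. The arm GTTNCC, in which N is any base, was found on either strand in the 200 bp around the centre of 70.8% of shared peaks and in 28.3% of windows 1000 bp to their right. Both Sox30 sites and the upstream site of Gtf2a1l had at least 2 in either replicate. The promoters of Tbpl1 and Gtf2a1l, the Sox5 intron and the Tcfl5 site had 0. The Thg1l promoter, without an X-box in its window, had 0 around the centre of replicate 1 and 2 around that of replicate 2. The complete left arm in the sequence shown for the Gtf2a1l promoter and the GTTACC of Tbpl1 were not counted, since the latter lies outside these windows and the former lies outside or across their edge. In the promoters as a whole, 17.6% of all protein-coding genes had an X-box, and 57.03% of the 1985 genes with a promoter peak in both replicates. Of the 8 regulators it was Sox30 alone. The fewest mismatches were 4 in Crem, Tbpl1 and Sox5 and 5 in Fhl5, Gtf2a1l, Mybl1 and Tcfl5. The promoters of Tbpl1 and Gtf2a1l, with a peak in both replicates, thus did not come nearer to an X-box than those of Crem and Sox5. Crem and Sox5 have 26 and 12 annotated TSS against 4 in Tbpl1 and 3 in Gtf2a1l, so more promoter windows were searched in them.

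The genes whose promoter peaks were placed most like those of the regulators were looked up among the 1985 genes with a promoter peak in both replicates, by the summed difference in percentage of the list. Sox30 was nearest to Pbx3, a homeodomain factor, with a summed difference of 0.166 percentage points over the 2 replicates. Tbpl1 was nearest to Fam192a and Rspry1, which have equal values, with 0.541. Gtf2a1l had no close neighbour, as the nearest gene, Cops8, differed by 3.74. With 2 replicates this measure describes the rank alone.

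Relatives of the regulators were examined in the same way. Of 14 paralogues (Creb1, Atf1, Fhl1, Fhl2, Fhl3, Fhl4, Tbp, Tbpl2, Gtf2a1, Gtf2a2, Myb, Mybl2, Sox6 and Sox13), only Mybl2 (B-MYB, a cell cycle factor) had a promoter peak. It scored 34.8 in replicate 1 (rank 2634) and 16.4 in replicate 2 (rank 2100), and its −log10 p was 54.8 in the combined list. The other 13 had none in any list. The count of 1 of 14 stands against 14.0% of all protein-coding genes in replicate 1, 11.3% in replicate 2 and 9.05% in both. Within the MYB family a promoter peak was listed for Mybl2 and none for Mybl1. Within the TBP and TFIIA families promoter peaks were listed for Tbpl1 and, near the end of the list of replicate 1, for Gtf2a1l, and none for Tbp, Tbpl2, Gtf2a1 and Gtf2a2. In the loci of the relatives the peaks numbered 16.5 per Mb in replicate 1 and 8.23 in replicate 2, against 17.7 and 11.3 for the 8 regulators.

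A second list held 8 other regulators of the testis, namely Taf7l, Taf4b, Brdt, Creb3l4, Ovol1, Rfx2, Stra8 and Kif17. Of these, 1 had a promoter peak in replicate 1, 3 in replicate 2 and 1 in the combined list. The first 8 regulators had 3, 4 and 1, and the shares of all protein-coding genes were 14.0%, 11.3% and 5.26%. Rfx2 itself had a promoter peak in all 3 lists, with scores of 45.9 (rank 1948) and 16.0 (rank 2254) and a −log10 p of 45.2. This is close in rank to the Sox30 promoter in replicate 2 and below it in replicate 1. Kif17, a kinesin that moves the CREM coactivator out of the nucleus, had a promoter peak in replicate 2 alone (9.08, rank 4127), as had Creb3l4, a spermatid factor of the CREB family (5.95, rank 7259). Taf7l, Taf4b, Brdt, Ovol1 and Stra8 had none in any list. In the loci of this second list the peaks numbered 17.7 per Mb in replicate 1 and 10.6 in replicate 2. These densities are close to the 17.7 and 11.3 of the first 8 regulators.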

How the data were processed

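RFX2 ChIP-seq peaks came from 2 WT replicates and their inputs, grouped by sample title. Per the labels' processing notes, the authors used CASAVA 1.8.2, Bowtie 0.12.7 and MACS2 2.0.10.20130520 on build GRCm38 (Ensembl release 70). Multiply mapped reads were discarded, and from a second run of replicate 2 the authors took out reads that also mapped to human sequence. In the deposited replicate lists each peak carries a −log10 value, and whether it stems from a p-value or q-value is not given in the sources used here. The other deposited list gives a score, a fold (the ratio to local background), −log10 p and q, and a summit. It is attached to replicate 2, but its peak names begin with "all", and it was read as 1 call on pooled reads and named combined. Whether the combined list was also filtered for reproducibility between the replicates is not stated. Read depth is unknown.

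Peaks were joined to genes of GENCODE mouse release 21 on GRCm38 patch 6 at an overlap of at least 1 bp, with Python 3.11.15 and pandas 2.3.3, after checks on simulated data and with bedtools 2.31.1. Peaks of equal score share the best rank. Results are counts and ranks beside the values of all genes or peaks, with no test. The named genes were the 8 regulators, listed relatives and other regulators, the gene nearest each peak described, Dync2li1, and the gene most like each regulator with a promoter peak in both replicates. The members and lists were chosen with earlier results of these data known. Alternatives were TSS choice, window widths, list cuts, overlap rules, mismatch limits and leaving out a replicate. A degenerate X-box (A or G at position 4, C or T at position 11) was added after seeing the data.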

Additional observations from a re-analysis of the deposited data

How the results depend on the processing

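Of 55 alternative values, 45 stayed within 1.5 times the value reported and 10 did not. With the 5′-most TSS only, 2 regulators in place of 4 had a promoter peak in replicate 2, since Tbpl1 and Sox5 fell out. In the higher-scoring 50% of each list, 0 in place of 1 had a promoter peak in the combined list, 1 in place of 4 had a combined locus peak, and the locus peaks numbered 21, 14 and 1 in replicate 1, replicate 2 and the combined list, in place of 36, 23 and 5. With 10 kb on each side, replicate 2 held 14 locus peaks and the combined list 2, in the loci of 2 regulators. With centres at most 100 bp apart, 5 in place of 8 peaks were shared. With either replicate left out, promoter peaks were found for 3 to 4 regulators in place of 3 in both replicates, and locus peaks for 7 in place of 5. These last values stayed within 1.5 times. The alternatives listed here use fewer TSS, shorter flanks, fewer peaks, a stricter overlap rule or a single replicate. Why the values moved was not tested beyond this. No paired analysis was possible because no result comes from a test and the inputs have no peak list of their own. Both X-box counts stayed at 3 with the degenerate X-box, which was chosen after seeing the data. Sites below a list's threshold cannot be seen.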
